A study of Mus musculus with 18 samples.

Results

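The liver and the inguinal white fat (iWAT) of mice labelled WT were compared across all genes, as liver minus iWAT, in 3 liver and 3 iWAT libraries of RNA-seq. These are 6 of the 18 libraries of the series, and they were chosen by their tissue and genotype labels, not by any measured value. The mice were of the C57BL/6 strain and aged 12 weeks. WT denotes animals with floxed Bckdha alleles (Bckdha f/f), so both tissues carry the modified locus and are not wild type there. The KO libraries, 3 of liver and 3 of iWAT, come from animals with the same floxed alleles and RIP-Cre, a driver best known for pancreatic beta cells, and serve here as other libraries for the same tissue difference. The sources used here give neither the sex of the animals nor a statement that replicates are separate animals, and no label says which liver and iWAT libraries share an animal. The p-values therefore measure the spread between libraries, which may be technical in part.

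The liver and white fat divide the handling of fuel between them. Hepatocytes release glucose, ketone bodies, lipoproteins and most plasma proteins, and break down amino acids, cholesterol and foreign compounds. White adipocytes take up fatty acid and glucose under insulin, store triglyceride, release fatty acid on adrenergic signals and secrete hormones such as leptin and adiponectin. Hepatocytes keep their identity through HNF4 and FOXA factors, and adipocytes through PPAR gamma and the EBF factors.

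Total expected counts were 22684855, 20249956 and 20732824 in liver and 18430372, 27462097 and 20159539 in iWAT. A filter on low counts left 13647 genes for the test, and 8651 genes were not tested. A gene was called at an adjusted p under 0.05 in edgeR's quasi-likelihood test with Benjamini-Hochberg adjustment over all genes tested. The call was higher in liver for 3687 genes (27%) and lower for 4787 genes (35.1%). At a fold of at least 8, 1004 genes (7.36%) were higher in liver and 1862 (13.6%) lower. The groups did not overlap for 70.1% of the genes tested.

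How the libraries are scaled sets where no change lies, because liver RNA is concentrated in few genes. The 1004 genes at least 8-fold higher in liver held 56.5%, 59.3% and 56.5% of the counts of the liver libraries, and 1.90%, 2.96% and 3.02% of those of the iWAT libraries. The 1862 genes at least 8-fold lower held 0.501%, 0.273% and 0.294% of the counts in liver, and 17.7%, 20.1% and 14.7% in iWAT. The median log2 fold change of all genes tested was -0.22 with TMM, the scaling used here. It was -0.11 with median-of-ratios scaling, -0.47 with upper quartile scaling and -1.59 with library totals alone. Library totals called 1363 genes higher and 9593 lower. Called the same way under all 4 scalings were 1363 genes (9.99%) higher and 4496 (32.9%) lower. A call or direction named below that does not hold under all 4 is marked as such. The libraries of liver and iWAT did not overlap for a gene given by library unless this is said. The order of libraries is that of TMM-scaled values, and in places it differs with library totals.

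Both tissue labels were matched by their markers. Albumin (Alb), the main plasma protein made by hepatocytes, took 7.24%, 7.99% and 7.84% of the counts in the liver libraries and 0.0138%, 0.0104% and 0.0198% in the iWAT libraries. In CPM, which are TMM-scaled counts brought to one library size, Alb had 110790, 143880 and 118920 CPM in liver, against 81.9, 69.5 and 122 CPM in iWAT. The log2 fold change came to 10.42 ± 0.58 (SE), edgeR adjusted p = 1.13e-05. Adiponectin (Adipoq), a hormone made by adipocytes, had 4.45, 5.34 and 4.1 CPM in liver, against 447, 1432 and 1009.6 CPM in iWAT, a log2 fold change of -7.70 ± 0.56 (SE), edgeR adjusted p = 4.31e-05. No library of either tissue came near those of the other for these genes. All 10 hepatocyte markers were higher and all 10 adipocyte markers lower in liver, under each scaling. In whole tissue, fewer cells of a type and less RNA per cell cannot be told apart.

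Transcripts of other cell types also differed between the tissues. The Kupffer cell receptor Clec4f, which marks the resident macrophages of the liver, had 228, 143 and 150.3 CPM in liver, against 0.0321, 0.0485 and 0.214 CPM in iWAT. The list of 8 Kupffer cell markers was mixed, with 4 higher in liver, 2 lower and 2 not called. General macrophage markers were lower in liver for 6 of 10 and not called for 4, with sums over the list of 517, 396 and 422 CPM in liver and 1843, 1892 and 2100 CPM in iWAT. Endothelial markers were lower for 8 of 9, and for 5 of 9 without iWAT replicate 3, with sums of 299.9, 97.0 and 257 CPM in liver and 572, 984 and 830 CPM in iWAT. Adipose progenitor markers were lower for 10 of 11, with sums of 265, 234 and 243 CPM in liver and 1454, 3536 and 1752 CPM in iWAT. The other 1 was called higher in liver, at 1.23, but not under all 4 scalings. Schwann cell and nerve markers were lower for 7 of 7, with sums of 11.7, 11.6 and 6.95 CPM in liver and 139.9, 415 and 310.2 CPM in iWAT. No marker of the macrophage, endothelial, progenitor and Schwann cell lists was at 0 throughout a tissue. Skeletal muscle markers summed to 0.202, 0.890 and 0.512 CPM in liver and 5.30, 357 and 4.44 CPM in iWAT, so that muscle transcripts were high in iWAT replicate 2 alone. In liver, replicate 2 was the lowest of the 3 in the endothelial sum.

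Lymphoid transcripts differed between the iWAT libraries. B cell markers summed to 9.24, 8.10 and 6.95 CPM in liver and 1202, 4.93 and 506 CPM in iWAT. T cell markers summed to 19.8, 12.9 and 12.3 CPM in liver and 496, 9.97 and 324 CPM in iWAT. For both lists iWAT replicates 1 and 3 lay far above the 3 liver libraries. In TMM-scaled CPM iWAT replicate 2 lay under all 3 liver libraries, but with library totals alone it lay above them. Of the 9 B cell markers, 5 passed the filter and were called lower in liver, and of the 9 T cell markers 8 were called lower. Both counts were 9 without iWAT replicate 2. The B cell count was 0 without any 1 of the liver libraries, and the T cell count was 4 without liver replicate 1 and 1 without liver replicate 2 or 3. The part of lymphoid or muscle tissue in the other differences was not tested.

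The most abundant liver genes code for secreted proteins. Deposited FPKM, which divides fragments by transcript length and depth, allows levels of different genes to be compared. Between tissues FPKM follows library totals and not TMM, so its ratios run with the fit on library totals. The rankings by FPKM leave out genes whose liver and iWAT libraries overlapped, and predicted and mitochondrially encoded genes. Among genes at least 8-fold higher in liver, the 15 with the highest mean FPKM there were Alb, Mup22, Mup7, Mup19, Trf, Mup11, Mup14, Mup18, Serpina1c, Ahsg, Serpina1b, Cyp2e1, Apoa2, Apoa1 and Hpx. All but Cyp2e1, a cytochrome P450 that oxidises ethanol and ketones, code for plasma or urinary proteins. Alb averaged 37797 FPKM in liver and 72.2 FPKM in iWAT. Transferrin (Trf), the iron carrier, averaged 10944 FPKM in liver and 696 FPKM in iWAT. The major urinary proteins (Mup) bind pheromones that leave in the urine, and all 19 Mup genes tested were higher in liver under each scaling. The Mup genes and the alpha-1 antitrypsin genes Serpina1a to Serpina1e are near-identical copies, so the split of reads within each family is uncertain.

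The most abundant iWAT genes include genes of lipid storage, adipocyte secretion, connective tissue and immune cells. The 15 with the highest mean FPKM in iWAT among genes at least 8-fold lower in liver were Cfd, Scd1, Fabp4, Gsn, Lyz2, Cidec, Lpl, Adipoq, Pnpla2, Ifi27l2a, Gpx3, Dcn, Ighm, Cd36 and Sparc. Adipsin (Cfd), a complement protease secreted by adipocytes, averaged 11.1 FPKM in liver and 8414 FPKM in iWAT. In CPM it had 15.4, 17.5 and 15.1 CPM in liver, against 1869.9, 6618 and 5821 CPM in iWAT, and its log2 fold change was -8.22 ± 0.64 (SE), edgeR adjusted p = 5.96e-05. The fatty acid carrier Fabp4 had 28.9, 34.1 and 26 CPM in liver, against 1444, 4099.7 and 2783 CPM in iWAT. Cidec, which helps lipid droplets fuse, had 7.69, 7.92 and 7.9 CPM in liver, against 492, 1498 and 1458 CPM in iWAT. For all 3 genes iWAT replicate 1 was the lowest of its tissue, as it was for the sum of the adipocyte markers, at 5144, 16333 and 13021 CPM in iWAT. The immunoglobulin heavy chain Ighm had 10.5, 12.2 and 7.54 CPM in liver, against 1305, 95.8 and 721 CPM in iWAT, and its iWAT libraries stood in the order of the B cell sums.

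**Figure D1:**
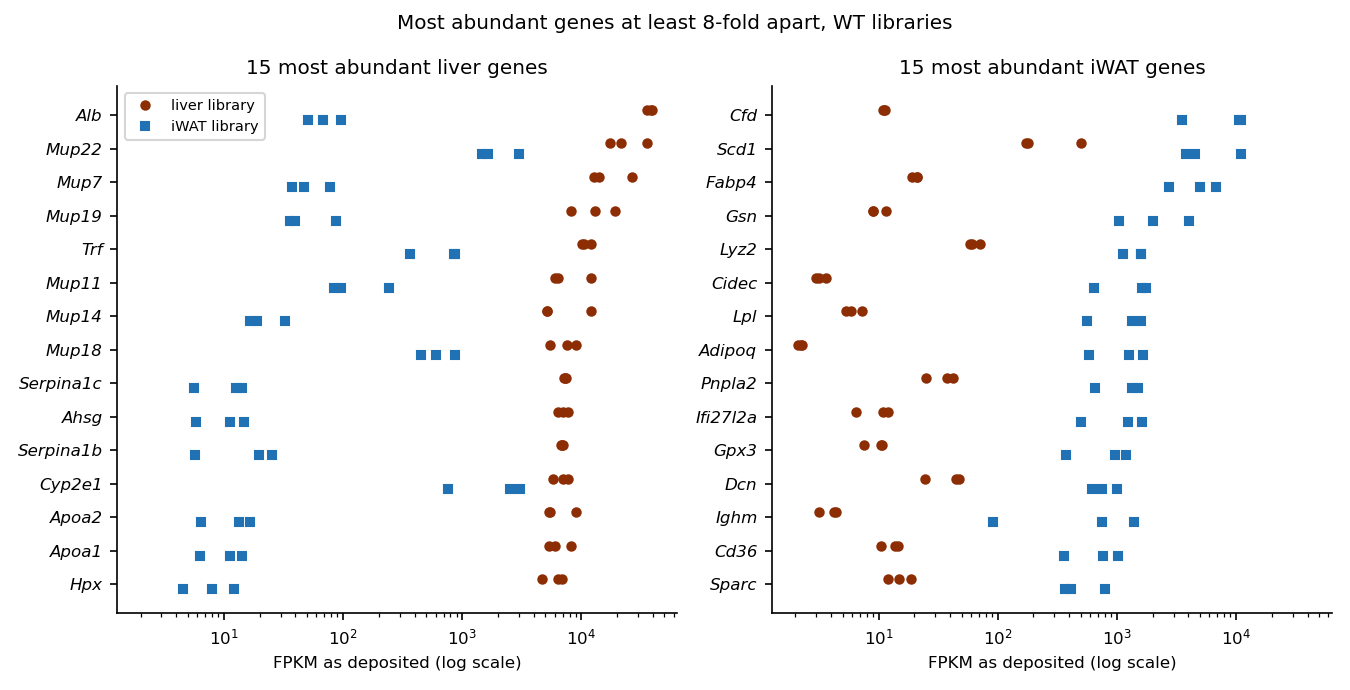
Deposited FPKM (log axis) of the 15 genes with the highest mean level in liver (left) and in iWAT (right) among genes at least 8-fold apart. Each circle is a WT liver library and each square a WT iWAT library. Alb averaged 37797 FPKM in liver and 72.2 FPKM in iWAT. Only genes whose liver and iWAT libraries do not overlap could be shown, and predicted and mitochondrially encoded genes were left out.

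For many liver genes the level in iWAT was a common small share of the level in liver. Alb in the 3 iWAT libraries was at 0.18%, 0.136% and 0.257% of its mean FPKM in liver. Transthyretin (Ttr), a carrier of thyroxine, was at 0.175%, 0.0841% and 0.207%, and the nuclear receptor Hnf4a at 0.204%, 0.114% and 0.216%. For these and every other hepatocyte marker but Cyp2e1, iWAT replicate 2 was lowest and iWAT replicate 3 highest. The median share over the 10 hepatocyte markers was 0.162%, and 324 of the 1004 genes at least 8-fold higher in liver were under 0.5%. In the other direction, Adipoq in the 3 liver libraries was at 0.192%, 0.195% and 0.178% of its mean FPKM in iWAT, and the median over the 10 adipocyte markers was 0.280%. A log2 fold change near 10 has this low level as its denominator, and where the low level comes from was not tested.

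**Figure D2:**
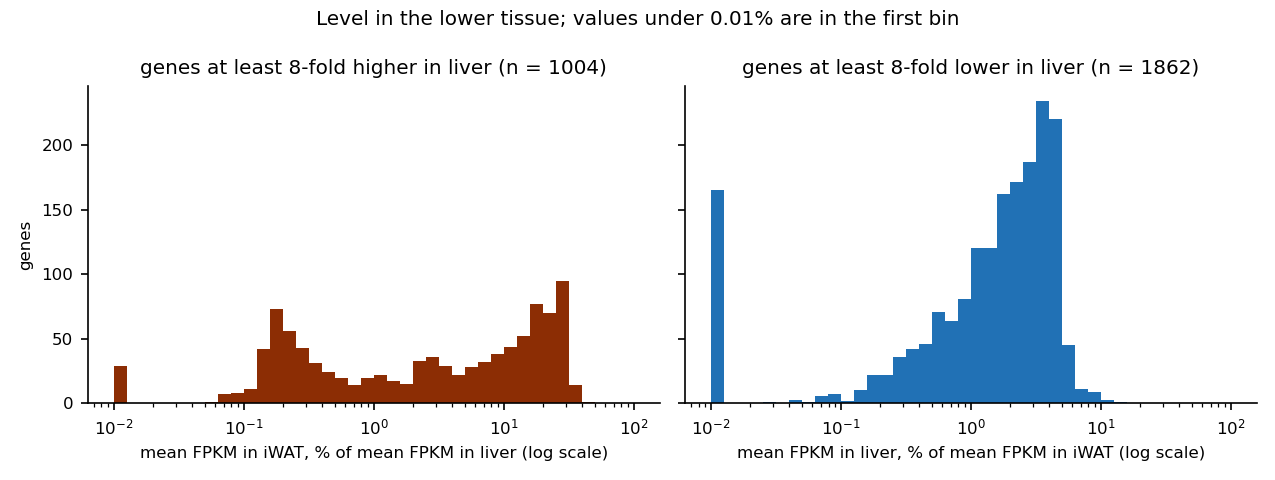
Mean FPKM in the lower tissue as a percent of that in the higher tissue (log axis), for the 1004 genes at least 8-fold higher in liver (left) and the 1862 at least 8-fold lower (right). Among the genes higher in liver, 324 lie under 0.5% and the others spread above it, with a median of 3.15% over all 1004. For the genes lower in liver the median was 1.86%.

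Among plasma proteins, a few stood well above that share in iWAT. Of 32 plasma carriers and protease inhibitors 31 were tested, and all 31 were higher in liver, 30 of them under each scaling. Selenoprotein P (Selenop), which carries selenium, had 9246, 9777 and 7646 CPM in liver, against 1699, 2487 and 2279 CPM in iWAT. On the log2 scale the difference was 2.04 ± 0.32 (SE), edgeR adjusted p = 0.0013, and it was not called with library totals. In iWAT it stood at 62.4% of its mean FPKM in liver. Ceruloplasmin (Cp), the copper ferroxidase, stood at 32.9%, haptoglobin (Hp), which binds free haemoglobin, at 14.9%, and Trf at 6.36%. Haptoglobin had 7638, 13681 and 8031 CPM in liver, against 227, 745 and 717 CPM in iWAT. The retinol carrier Rbp4 had 3683, 6679 and 4276 CPM in liver, against 27.2, 106 and 53.3 CPM in iWAT. Hemopexin (Hpx), the vitamin D carrier Gc and Ahsg, in contrast, stood at 0.137%, 0.164% and 0.151%. Cyp2e1 was the one hepatocyte marker outside the common share, with 21768, 19041 and 19594 CPM in liver, against 831, 3746 and 2858 CPM in iWAT. Its log2 fold change was 3.02 ± 0.58 (SE), edgeR adjusted p = 0.0034, the smallest of the 10.

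Clotting genes went both ways. Of 30 coagulation and fibrinolysis genes, 20 were higher in liver and 6 lower, in each case under all 4 scalings. The 20 included the circulating zymogens, the 3 fibrinogen chains and the inhibitors antithrombin (Serpinc1) and protein C (Proc). Factor XII (F12), which starts the contact pathway, had 769, 748 and 731 CPM in liver, against 0.418, 0.413 and 0.52 CPM in iWAT. Lower in liver were tissue factor (F3), the membrane trigger of clotting, the plasminogen activators Plau and Plat, the inhibitor Tfpi, von Willebrand factor (Vwf) and F13a1. The subunits of factor XIII, which crosslinks fibrin, were on opposite sides. The catalytic subunit F13a1 had 1.69, 2.94 and 0.439 CPM in liver, against 67, 324 and 213 CPM in iWAT. The carrier subunit F13b had 184, 194 and 161 CPM in liver, against 0.0964, 0.0728 and 0.184 CPM in iWAT.

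Complement genes also went both ways. Of 31 genes, 22 were higher in liver and 9 lower, and 17 and 8 under all 4 scalings. Only 5 were lower without liver replicate 1 or 3. Hc (complement C5) had 1278, 1031 and 1006 CPM in liver, against 2.35, 1.67 and 1.84 CPM in iWAT. The central component C3 had 28370, 14908 and 24519 CPM in liver, against 1841, 2471 and 2529.9 CPM in iWAT. The terminal components C8a, C8b and C9 and the lectins Mbl1 and Mbl2, which recognise microbial sugars, had log2 fold changes of 10.26 to 11.42. C7 was the one terminal component that was lower in liver, with 2.09, 0.712 and 1.1 CPM in liver, against 6.71, 32 and 28.1 CPM in iWAT, which is a log2 fold change of -4.07 ± 0.69 (SE), edgeR adjusted p = 0.002. The C1q chains, made by macrophages, were lower by little, at -0.80 for C1qa, -0.73 for C1qb and -0.65 for C1qc. C1qc was not called with median-of-ratios scaling, and all 3 calls were lost without iWAT replicate 2 or 3 or liver replicate 1 or 3. In the alternative pathway the protease Cfd was lower in liver, as given above, and its substrate factor B (Cfb) was higher, with 2280.2, 2218 and 2091 CPM in liver, against 191, 162 and 206 CPM in iWAT.

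Apolipoproteins were higher in liver, and the main lipase of fat was lower. Of 31 genes of lipoprotein handling, 20 were higher and 5 lower, and 19 and 5 under all 4 scalings. Apob, the backbone of secreted lipoproteins, had 2622, 3185 and 1810 CPM in liver, against 2.15, 4.05 and 3.49 CPM in iWAT. Apoa1, the main protein of HDL, had 9537, 15470 and 8438 CPM in liver, against 6.94, 4.39 and 9.15 CPM in iWAT. Apoe, a ligand for lipoprotein uptake, was high in both tissues, with 22560, 28177 and 22882 CPM in liver, against 2623, 6494 and 3868 CPM in iWAT. The difference on the log2 scale came to 2.50 ± 0.44 (SE), edgeR adjusted p = 0.0022. The lower genes were lipoprotein lipase (Lpl), the VLDL receptor (Vldlr), Apod, the transfer protein Pltp and the cholesterol exporter Abcg1. Lpl, which frees fatty acid from circulating triglyceride, had 34.4, 54 and 30.9 CPM in liver, against 1319, 4268 and 3371 CPM in iWAT. Hepatic lipase (Lipc) had 139, 144 and 126 CPM in liver, against 2.54, 0.0243 and 0.582 CPM in iWAT, and iWAT replicate 1 was the highest of its tissue.

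Hormone genes separated the tissues as well. Of 24 hepatokines and hormone carriers tested, 22 were higher in liver, 20 of them under each scaling. Igf1, the growth factor released under growth hormone, had 289.9, 554 and 276 CPM in liver, against 51.3, 93 and 74.1 CPM in iWAT. The log2 fold change came to 2.36 ± 0.37 (SE), edgeR adjusted p = 0.0015. The binding protein Igfbp2 had 612, 830.0 and 981 CPM in liver, against 0.964, 0.534 and 0.643 CPM in iWAT. The activin-family subunit Inhbe had 104, 69.9 and 77.7 CPM in liver, against 0.0321, 0.0243 and 0 CPM in iWAT. Hepcidin (Hamp), the iron hormone of the liver, was the list's member that did not pass the filter, with 0, 1.07 and 0.293 CPM in liver, against 0.193, 0.0243 and 0.0918 CPM in iWAT, where the tissues overlapped. Its mouse copy Hamp2 is near-identical, so reads of Hamp are uncertain.

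Of 18 adipokines, 13 were lower in liver and 2 higher, under each scaling. Leptin (Lep), the satiety hormone of fat, had 2.16, 1.6 and 0.732 CPM in liver, against 52.6, 232 and 60.0 CPM in iWAT. Resistin (Retn), an adipocyte hormone of mice, had 1.75, 1.78 and 1.1 CPM in liver, against 102, 312 and 364 CPM in iWAT. Within iWAT, Lep was highest in replicate 2, while Retn was high in replicates 2 and 3. Chemerin (Rarres2), a chemoattractant, was higher in liver, with 442, 739 and 411 CPM in liver, against 38.4, 133 and 75.7 CPM in iWAT, a log2 fold change of 2.69 ± 0.50 (SE), edgeR adjusted p = 0.0029, and 3.34 without iWAT replicate 2. Lipocalin 2 (Lcn2), an acute phase protein as well, had 369, 386 and 114 CPM in liver, against 37.2, 3.71 and 14 CPM in iWAT, so that it was uneven within both tissues.

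Nitrogen disposal and amino acid breakdown were liver programmes. Of 11 urea cycle and ammonia genes, 10 were higher in liver under each scaling. Carbamoyl phosphate synthetase (Cps1), the entry step, had 5612, 4211 and 10460 CPM in liver, against 4.21, 2.23 and 5.11 CPM in iWAT. Arginase (Arg1), the last step, had 923, 2104 and 1588 CPM in liver, against 1.22, 1.09 and 1.74 CPM in iWAT. The member not called was glutamine synthetase (Glul), which fixes ammonia in many tissues, at 0.17 with TMM and -1.18 with library totals. Of 30 genes of amino acid breakdown, 29 were higher, 28 under each scaling, with a list median of 8.20 against -0.22 for all genes tested. The glyoxylate enzyme Agxt had 169, 260.2 and 231 CPM in liver, against 0.0643, 0.0728 and 0.0612 CPM in iWAT. Cysteine dioxygenase (Cdo1) was not called, at 1.21 with TMM and -0.16 with library totals.

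The branched-chain amino acids were an exception among these pathways. Of 27 genes of their breakdown, 13 were higher in liver and 3 lower, but under all 4 scalings the counts were 3 and 3. Over all genes tested, 27% were higher and 35.1% lower, and 9.99% and 32.9% under all 4 scalings. Under all 4, the higher count thus lay near the share over all genes and the lower count under it. Without iWAT replicate 1, 5 were lower. Lower in liver were both transaminases that start the pathway and the kinase that inhibits its dehydrogenase. The mitochondrial transaminase Bcat2 had 14.7, 17.6 and 15.4 CPM in liver, against 52, 172 and 174 CPM in iWAT. On the log2 scale the difference was -3.06 ± 0.47 (SE), edgeR adjusted p = 0.0013. The cytosolic transaminase Bcat1 had 0.0675, 0 and 0 CPM in liver, against 6.07, 3.86 and 1.87 CPM in iWAT, so that 2 of the 3 liver libraries held no read. The kinase Bckdk had 13.4, 11.4 and 16.4 CPM in liver, against 41.4, 54.4 and 53.1 CPM in iWAT, a log2 fold change of -1.86 ± 0.23 (SE), edgeR adjusted p = 4.57e-04. Bckdha, the dehydrogenase subunit that is floxed in all these mice, had 305, 355 and 360.5 CPM in liver, against 73.2, 137 and 120.0 CPM in iWAT. Its log2 fold change was 1.63 ± 0.28 (SE), edgeR adjusted p = 0.0022, but it was not called with library totals, at 0.27. By FPKM it averaged 111 in liver and 91.9 in iWAT. Abat, which also breaks down GABA, and Mcee were among those higher under each scaling.

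Bile acid and xenobiotic genes were almost all higher in liver. All 18 bile acid genes were, 17 of them under each scaling, and the list median was 9.88. Cyp7a1, the rate-limiting enzyme of bile acid synthesis, had 178, 139.7 and 193 CPM in liver, against 0.257, 0.0485 and 0.184 CPM in iWAT. The uptake carrier Slc10a1 had 1052, 1126 and 1064 CPM in liver, against 0.771, 0.874 and 1.25 CPM in iWAT. The export pump Abcb11 had 384, 299.9 and 465 CPM in liver, against 0.225, 0.267 and 0.306 CPM in iWAT. Of 23 phase I genes 21 were higher, 20 under each scaling, and of 22 conjugation genes all 22 were, 19 under each scaling. Among all cytochrome P450 genes 65 were tested, with 53 higher and 7 lower, and 50 and 7 under each scaling. Cyp2d26 had 1552, 1629 and 1483 CPM in liver, against 0.867, 1.02 and 1.1 CPM in iWAT, a log2 fold change of 10.60 ± 0.35 (SE), edgeR adjusted p = 3.68e-06. Ugt1a1, which conjugates bilirubin, had 2023, 1679 and 1632 CPM in liver, against 1.48, 1.02 and 1.35 CPM in iWAT. The Ugt1a genes share exons, so the division of reads among them is uncertain.

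Iron and vitamin A handling leaned to liver with exceptions. Of 21 iron and haem genes tested, 16 were higher and 2 lower, and 8 and 2 under each scaling. The iron sensor Tfr2 had 626, 560.1 and 579 CPM in liver, against 0.546, 0.655 and 0.918 CPM in iWAT. The lower genes were Bmp6, an iron signal of endothelial cells in liver, and the haem oxygenase Hmox1. Bmp6 had 4.18, 3.2 and 2.93 CPM in liver, against 8.32, 20.4 and 15.4 CPM in iWAT. Of 19 retinoid genes tested, 14 were higher and 4 lower, and 10 and 4 under each scaling. Cyp26a1, which degrades retinoic acid, had 203, 186 and 156 CPM in liver, against 0.225, 0.0485 and 0.0918 CPM in iWAT. Aldh1a3, which makes retinoic acid, had 0.742, 0.178 and 0.366 CPM in liver, against 5.43, 28.1 and 12.5 CPM in iWAT, lower in liver, as was Aldh1a2.

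Sterol synthesis genes were higher in liver, while those of fatty acid synthesis were called both ways, at shares near those of all genes. Of 24 cholesterol synthesis genes, 23 were higher in liver, 20 under each scaling, and none was lower. Squalene epoxidase (Sqle), an oxygen-dependent step of sterol synthesis, had 431, 406 and 429 CPM in liver, against 15, 16.1 and 25 CPM in iWAT, which is a log2 fold change of 4.50 ± 0.29 (SE), edgeR adjusted p = 2.38e-05. Of 20 genes of fatty acid synthesis, 8 were lower and 6 higher, and 8 and 3 under each scaling. Over all genes tested, 35.1% were lower and 27% higher. Fatty acid synthase (Fasn) had 1599, 1542 and 1837 CPM in liver, against 4705, 11956 and 12213 CPM in iWAT. The difference on the log2 scale came to -2.54 ± 0.44 (SE), edgeR adjusted p = 0.0022. ATP citrate lyase (Acly), which supplies acetyl-CoA, had 592, 402 and 601 CPM in liver, against 1673, 3813 and 4095 CPM in iWAT. The desaturase Scd1 had 3698, 1552 and 1246 CPM in liver, against 12893, 35674 and 11381 CPM in iWAT. The genes higher under each scaling, Elovl2, Fads1 and Fads2, make polyunsaturated fatty acids. Elovl2 had 579.5, 544 and 571 CPM in liver, against 0.353, 0.388 and 0.643 CPM in iWAT. Fads2 had 993, 545 and 723 CPM in liver, against 24.5, 14.7 and 21.5 CPM in iWAT.

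Storage genes of adipocytes were lower in liver, while both tissues had droplet proteins of their own. Of 23 droplet and lipolysis genes, 10 were lower and 7 higher, and 8 and 6 under all 4 scalings. The first 2 counts lie near the shares over all genes tested, 35.1% lower and 27% higher. The droplet coat protein Plin1 had 2.63, 4.18 and 2.41 CPM in liver, against 234, 725 and 496 CPM in iWAT. Hormone-sensitive lipase (Lipe) had 25.3, 20.0 and 31.8 CPM in liver, against 296, 805 and 579 CPM in iWAT. Hsd17b13, a droplet protein of hepatocytes, had 236, 437 and 275 CPM in liver, against 0.161, 0.17 and 0.367 CPM in iWAT. Of 25 triglyceride synthesis genes tested, 10 were lower and 7 higher, also near the shares over all genes, and 10 and 3 under each scaling. The last step was uneven: Dgat1 had 28.7, 30.6 and 39.2 CPM in liver, against 85.7, 229 and 199 CPM in iWAT. Dgat2 was not called with TMM, with 976, 836 and 904 CPM in liver, against 695, 2406 and 1463 CPM in iWAT. In TMM-scaled CPM iWAT replicate 1 lay under the 3 liver libraries for Dgat2, but with library totals alone it lay above them.

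Fat burning and ketone synthesis were higher in liver for 25 of 29 genes, 13 of them under each scaling. Cpt1b and Oxct1 were the 2 lower genes. Oxct1, which tissues outside the liver use to burn ketone bodies, had 6.41, 5.34 and 4.46 CPM in liver, against 101, 124 and 117 CPM in iWAT. The log2 fold change came to -4.40 ± 0.24 (SE), edgeR adjusted p = 1.03e-05.

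Glucose production and sensing was higher in liver for 13 of 17 genes, 12 of them under each scaling. Glucose-6-phosphatase (G6pc), which frees glucose for export, had 168, 102 and 111 CPM in liver, against 0.0643, 0.194 and 0.153 CPM in iWAT. Fructose bisphosphatase (Fbp1) had 1507, 1328 and 1508 CPM in liver, against 0.996, 0.801 and 1.44 CPM in iWAT. Pck1, which also makes glycerol for triglyceride in fat, had 1659, 1538 and 1495 CPM in liver, against 55.4, 292 and 76.2 CPM in iWAT, and iWAT replicate 2 was the highest of its tissue. Ppp1r3c, a glycogen targeting subunit, was lower, with a log2 fold change of -1.72 ± 0.49 (SE), edgeR adjusted p = 0.018, a call lost without liver replicate 1 or 2. Of 21 glycolysis genes 8 were lower and 6 higher, and 8 and 2 under each scaling. The first 2 counts lie near the shares over all genes tested, 35.1% lower and 27% higher. Hexokinase 2 (Hk2) had 4.65, 5.07 and 5.12 CPM in liver, against 115, 250.5 and 208 CPM in iWAT. Aldoc, one of the higher genes, had 50.3, 46.9 and 43.8 CPM in liver, against 1.64, 0.0485 and 0.52 CPM in iWAT.

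For the general machinery of energy and secretion the calls depended on scaling. Oxidative phosphorylation genes were called higher for 36 of 43 with TMM but for 1 of 43 with library totals, where 5 were called lower and the list median was -0.14. Of 38 genes of the secretion machinery, 33 were higher with TMM, and 8 were higher and 3 lower with totals. The disulfide isomerase P4hb, one of the 8, had 3878, 3982 and 3043 CPM in liver, against 306, 358 and 279 CPM in iWAT. The export receptor Lman1, which carries clotting factors, had 439.6, 443 and 421 CPM in liver, against 81.4, 82.9 and 74.7 CPM in iWAT. Ribosomal protein genes were higher for 1 of 42 with TMM and lower for 40 of 42 with totals. In the citrate cycle 11 of 21 genes were higher and 4 lower with TMM, and 2 and 4 under each scaling. Over all genes tested, 27% were higher and 35.1% lower with TMM, and 9.99% and 32.9% under each scaling. The higher count was 7 without liver replicate 3, and the lower count was 2 without iWAT replicate 3. Among the lower genes was the pyruvate dehydrogenase subunit Pdha1, with 130.1, 139 and 154 CPM in liver, against 335, 593 and 656 CPM in iWAT.

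**Figure D3:**
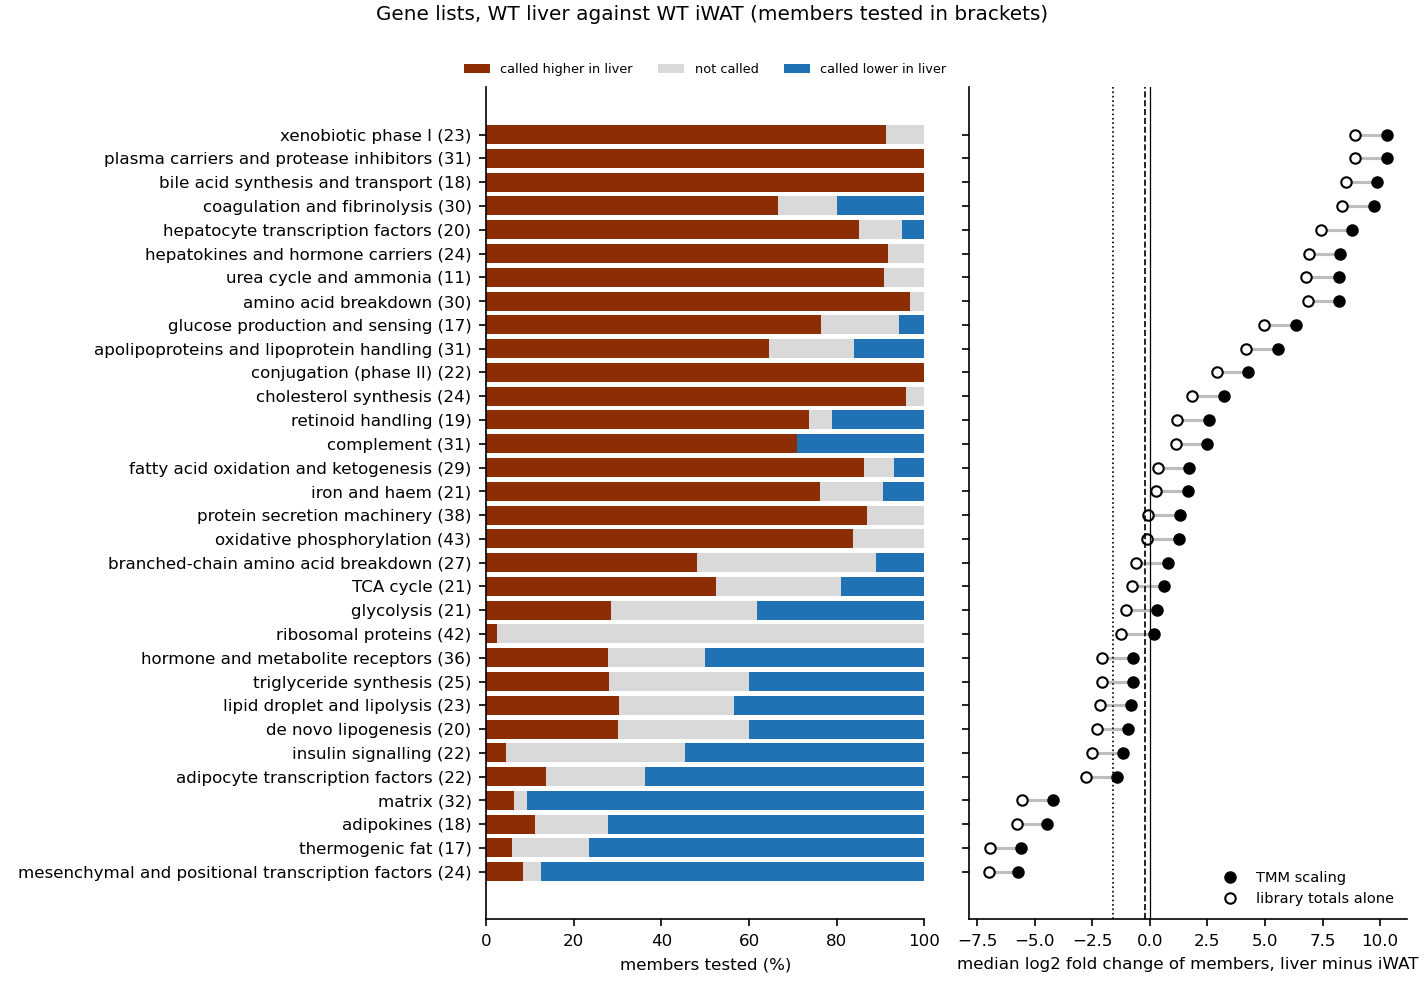
Left, share of tested members (%) of each gene list called higher in liver, not called, or called lower in liver, WT, with the number tested in brackets. Right, median log2 fold change of the members, liver minus iWAT, with TMM scaling (filled) and library totals alone (open). The dashed and dotted lines are the medians of all genes tested, -0.22 and -1.59. The lists run from xenobiotic phase I, with a median of 10.30, down to thermogenic fat, with a fitted median of -5.58, and mesenchymal and positional factors, with -5.72. With members without a read in a tissue set to the bound that 3 counts allow, these are -5.36 for thermogenic fat and -4.68 for mesenchymal and positional factors.

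For several steps the tissues used different genes of a family. In 30 pairs of a liver form and another form, the liver form was called higher and the other lower in 22, and in 21 under all 4 scalings. Over all genes tested, 27% were higher and 35.1% lower. The pairs were picked by hand with earlier results of these data known, so the count is a description and not a test. A pair whose other form was not tested could not cross. The glucose carrier Slc2a2 (GLUT2) made up 99.5%, 98.4% and 99.1% of the summed FPKM with the insulin-responsive carrier Slc2a4 (GLUT4) in liver, and 0.187%, 0.0321% and 0.0576% in iWAT. The pyruvate kinase of liver, Pklr, set against the widespread form Pkm, made up 77.1%, 84.6% and 81.3% in liver and 0.0590%, 0.0335% and 0.128% in iWAT. Pyruvate kinase is the last step of glycolysis. The lipid carriers Fabp1 and Fabp4, the droplet proteins Cideb and Cidec, the glycerol channels Aqp9 and Aqp7, the fatty acid carriers Slc27a2 and Slc27a1, and the methionine enzymes Mat1a and Mat2a were divided in the same direction. In each of these pairs the liver gene held 96.5% or more in every liver library and 11.7% or less in every iWAT library.

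Of the other pairs, some did not cross and some crossed with a limit. Scd1 and Scd2, Acacb and Acaca, and Pnpla3 and Pnpla2 were lower in liver for both genes. Plin2, a droplet protein of many tissues, was not called, at -0.84, while Plin1 was lower. Pfkl was not called, at -0.41, while Pfkp was lower. Pygl, the glycogen phosphorylase of liver, was higher at 0.93, but was not called with upper quartile scaling or library totals, nor without any 1 of liver replicates 1 to 3 or iWAT replicate 3. With library totals it was at -0.42. For the thyroid hormone receptors Thrb and Thra the pair crossed with TMM and median-of-ratios scaling only. Thrb, at 1.05, was -0.29 with library totals and lost its call without any 1 of the liver libraries. Ppara, the nuclear receptor of fasting, and Pparg crossed under all 4 scalings, with Ppara higher in liver and Pparg lower. Ppara had 144, 13.5 and 119 CPM in liver, against 1.93, 3.52 and 3.21 CPM in iWAT. Its share of the pair with Pparg was 89.8%, 43.1% and 85.7% in liver and 2.32%, 0.994% and 1.98% in iWAT, so that liver replicate 2 stood apart from the other liver libraries.

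**Figure D4:**
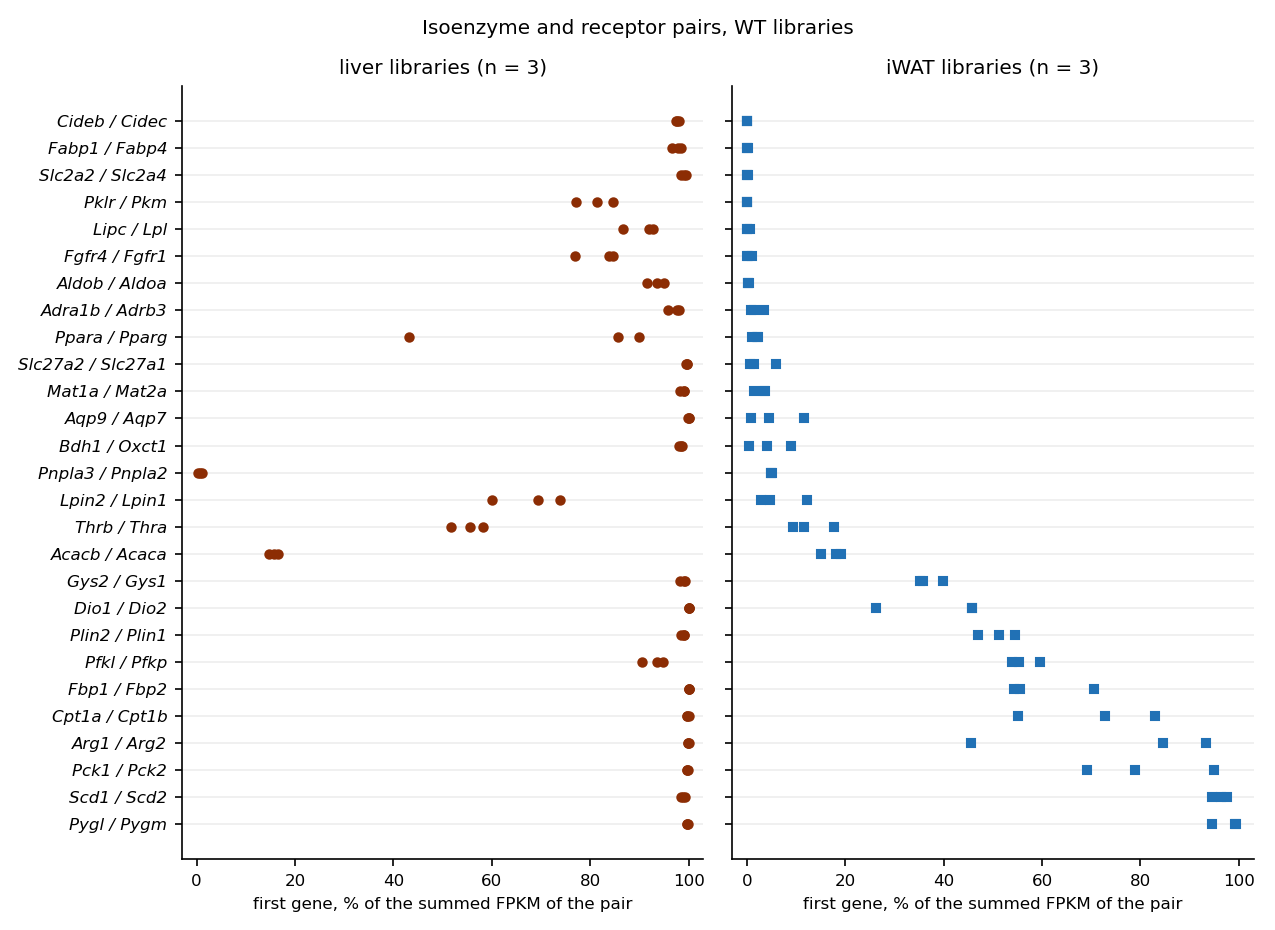
Share (%) of the first named gene in the summed FPKM of each pair, in the 3 WT liver libraries (left) and the 3 WT iWAT libraries (right). Slc2a2 lies at 98.4% or more in liver and at 0.187% or less in iWAT, and Scd1 is the main form in both tissues.

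Transcription factors of the hepatocyte were higher in liver in most cases. Of 20 tested, 17 were higher, 15 under each scaling, 1 was lower with TMM but neither under each scaling nor without iWAT replicate 2, and the list median was 8.78. Hnf4a, a nuclear receptor at the centre of hepatocyte identity, had 1182, 973 and 1310 CPM in liver, against 0.867, 0.558 and 0.979 CPM in iWAT, a log2 fold change of 10.49 ± 0.42 (SE), edgeR adjusted p = 4.23e-06. The pioneer factor Foxa2 had 49.2, 48.8 and 56.6 CPM in liver, against 0, 0.0243 and 0.0918 CPM in iWAT. The receptors of foreign compounds and bile acids followed. Nr1i3 (CAR) had 269, 241 and 256 CPM in liver, against 0.289, 0.194 and 0.184 CPM in iWAT. Nr1i2 (PXR) had 52, 57.4 and 72.7 CPM in liver, against 0, 0 and 0.0612 CPM in iWAT. The bile acid receptor Nr1h4 (FXR) had 149.8, 246 and 189 CPM in liver, against 0.643, 0.801 and 0.704 CPM in iWAT. Mlxipl (ChREBP), which responds to carbohydrate, was not called, with 67.4, 50.9 and 65.5 CPM in liver, against 38, 101 and 82 CPM in iWAT. Its tissues overlapped in TMM-scaled CPM but not with library totals alone.

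Adipocyte factors divided less evenly. Of 22 tested, 14 were lower in liver under each scaling and 3 were higher, 1 of them under each. Pparg, the master regulator of fat cells, had 11.1, 10.9 and 14 CPM in liver, against 56.5, 214 and 114 CPM in iWAT. On the log2 scale the difference was -3.42 ± 0.49 (SE), edgeR adjusted p = 9.47e-04, and -2.71 without iWAT replicate 2. The early adipocyte factor Ebf1 had 0.54, 0.178 and 0.439 CPM in liver, against 44.2, 65.9 and 56.6 CPM in iWAT. Its log2 fold change was -7.11 ± 0.39 (SE), edgeR adjusted p = 1.12e-05, and Ebf2 and Ebf3 were lower by more. Cebpa, which both cell types use, had 507, 549 and 634 CPM in liver, against 123, 417 and 271 CPM in iWAT and was not called, at 1.06 with TMM and -0.28 with library totals. Klf15, a factor of fasting metabolism, was the one higher under each scaling, with 170.4, 226 and 189 CPM in liver, against 12, 45.6 and 31.1 CPM in iWAT.

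Factors that mark position and mesenchyme in the body wall and limbs were lower in liver. Of 24 tested, 21 were lower under each scaling and 2 were higher. Tbx15 had 0.0675, 0 and 0 CPM in liver, against 10.2, 23.4 and 16.2 CPM in iWAT. Meox2 had 0.135, 0.178 and 0.0732 CPM in liver, against 18.2, 18.2 and 18.4 CPM in iWAT. Prrx1 had 0.472, 0.178 and 0.219 CPM in liver, against 40.0, 82.3 and 54 CPM in iWAT. Tcf21 and Sox9 were the higher ones. Tcf21, which stellate cells of the liver also express, had 5.94, 2.22 and 4.1 CPM in liver, against 0.0321, 0 and 0 CPM in iWAT. Sox9, a factor of bile duct cells, had 3.17, 5.25 and 3.37 CPM in liver, against 0.835, 0.801 and 0.428 CPM in iWAT.

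The Hox genes, which encode position along the body axis, showed the same side. Of 39 in the files 26 were tested, with 22 lower in liver under each scaling and none higher. All 14 tested genes numbered 6 to 10 were lower, with a median log2 fold change of -6.37. Of the 12 numbered 1 to 5, 8 were lower, with a median of -1.90. Hoxc10 had 0, 0 and 0.0732 CPM in liver, against 9.61, 22.2 and 16.5 CPM in iWAT. Hoxc9 had no read in the 3 liver libraries and 3.79, 10.9 and 7.56 CPM in iWAT. Hoxa5 was not called, with 0.742, 0.89 and 0.878 CPM in liver, against 0.9, 1.97 and 1.68 CPM in iWAT. No gene numbered 11 to 13 passed the filter.

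**Figure D5:**
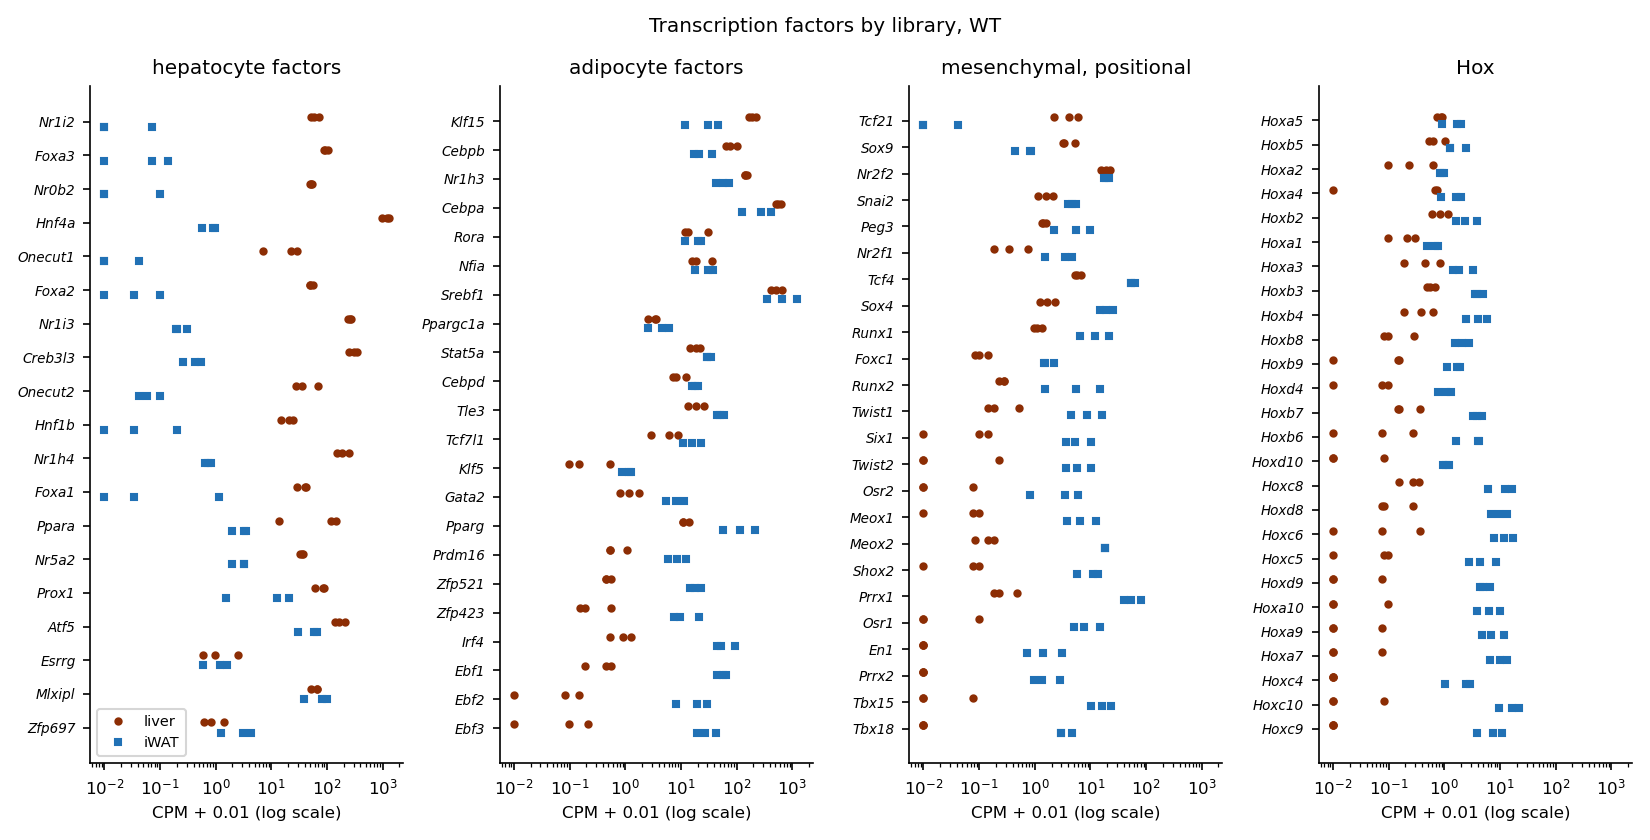
CPM plus 0.01 (log axis) of transcription factors in each WT library, liver as circles and iWAT as squares, ordered by log2 fold change within each panel. Hnf4a lies between 973 and 1310 CPM in liver and under 1 CPM in iWAT, and Hox genes lie under 2 CPM in every liver library.

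Promoters of the genes with the highest log2 fold changes were searched for letters of factor motifs. The sequences were those of RefSeq on GRCm38.p6 (mm10), from 250 bases before to 50 after the start, read on both strands. They matched 161 of the 200 called genes with the highest log2 fold change at 10 CPM or more in liver, and 128 of the 200 with the lowest at 10 CPM or more in iWAT. CAAAGTCCA, a core of the HNF4 motif, was in 10 of the 161 liver genes (6.21%), 0 of the 128 iWAT genes, 0.656% of 10664 tested genes and 0.555% of all 27025 genes in the table. The 10 include several Cyp2c genes, which belong to a cluster of similar copies, so they are not 10 independent genes. TATAAA was in 28.6% of the liver genes, 20.3% of the iWAT genes, 9.47% of the tested genes and 15.7% of all. The E-box CACGTG was in 4.35% of the liver genes, 8.59% of the iWAT genes, 11.3% of the tested genes and 8.09% of all. The C/EBP palindrome TTGCGCAA was in 0 of the liver genes, 0.781% of the iWAT genes, 0.338% of the tested genes and 0.207% of all. These are 4 of the 5 motifs searched, and none of the 4 contains another. No share was tested, and a match is a description of letters and not a site.

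The 150 bases before the start are shown for the 4 genes of highest liver FPKM among those with the HNF4 core there, since these genes stand behind the first of the shares. Capitals mark the match on either strand, and each window is written 5′ to 3′ on the strand of its gene. The HNF4 windows lie at chr5:145879855-145880004 for Cyp3a11, chr19:40187287-40187436 for Cyp2c70, chr19:39741102-39741251 for Cyp2c68 and chr19:39649043-39649192 for Cyp2c67, all on the minus strand.
Cyp3a11: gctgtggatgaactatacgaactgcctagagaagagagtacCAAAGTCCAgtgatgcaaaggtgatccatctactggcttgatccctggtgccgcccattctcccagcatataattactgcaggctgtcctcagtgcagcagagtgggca
Cyp2c70: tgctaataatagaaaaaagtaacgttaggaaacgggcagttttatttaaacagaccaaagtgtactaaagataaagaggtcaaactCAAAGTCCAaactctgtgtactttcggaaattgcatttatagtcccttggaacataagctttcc
Cyp2c68: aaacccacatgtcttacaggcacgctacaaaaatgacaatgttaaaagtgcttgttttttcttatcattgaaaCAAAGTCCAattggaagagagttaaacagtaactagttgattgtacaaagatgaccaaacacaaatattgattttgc
Cyp2c67: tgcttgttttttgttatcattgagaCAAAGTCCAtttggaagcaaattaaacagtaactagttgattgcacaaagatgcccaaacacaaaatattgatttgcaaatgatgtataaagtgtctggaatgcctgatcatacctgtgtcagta
The HNF4 core began 109 bases before the start in Cyp3a11, 64 in Cyp2c70, 77 in Cyp2c68 and 125 in Cyp2c67. The Cyp2c genes belong to a cluster of similar copies, so they are not independent examples.

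Receptors of hormones and metabolites were divided between the tissues. Of 36 tested, 10 were higher in liver and 18 lower, and 7 and 18 under each scaling. Over all genes tested, 27% were higher and 35.1% lower. The glucagon receptor (Gcgr), which drives glucose output, had 225, 198 and 203 CPM in liver, against 0.0964, 0.777 and 0.888 CPM in iWAT, which is a log2 fold change of 8.44 ± 0.69 (SE), edgeR adjusted p = 7.12e-05. The alpha-1 adrenoceptor Adra1b had 46, 32.9 and 43.1 CPM in liver, against 0.932, 0.849 and 0.826 CPM in iWAT. The beta-3 adrenoceptor Adrb3, which drives lipolysis in rodent fat, had 1.08, 1.42 and 1.02 CPM in liver, against 25.8, 91.4 and 51.4 CPM in iWAT. The difference on the log2 scale came to -5.58 ± 0.54 (SE), edgeR adjusted p = 1.61e-04, and -4.92 without iWAT replicate 2. The lactate receptor Hcar1 had 0.135, 0.267 and 0.146 CPM in liver, against 18.1, 44.6 and 33.4 CPM in iWAT. The insulin receptor (Insr) was not called with TMM, with 133, 71.9 and 113 CPM in liver, against 53.7, 139.9 and 104 CPM in iWAT. The growth hormone receptor (Ghr) was not called either, with 275, 328 and 252 CPM in liver, against 126, 406 and 259.9 CPM in iWAT. For both receptors the tissues overlapped in TMM-scaled CPM, and both were called lower with library totals, at -1.23 for Insr and -1.24 for Ghr.

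Among 22 genes of insulin signalling, 12 were lower in liver and 1 was higher, under each scaling. Tbc1d4, the Akt substrate that holds back GLUT4 vesicles, had 2.5, 2.05 and 3.22 CPM in liver, against 64.3, 59.3 and 66.4 CPM in iWAT. The log2 fold change came to -4.61 ± 0.25 (SE), edgeR adjusted p = 9.73e-06. Caveolin 1 (Cav1), which shapes caveolae of the adipocyte surface, had 5.4, 7.12 and 6.58 CPM in liver, against 278, 731 and 454 CPM in iWAT. The higher gene was Grb14, an inhibitor of the insulin receptor, with 49.2, 70.8 and 56.4 CPM in liver, against 1.51, 3.3 and 1.68 CPM in iWAT.

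Thermogenic genes were lower in liver for 13 of 17 tested, under each scaling. Ucp1, the uncoupling protein of brown and beige fat, had 0, 0 and 0.146 CPM in liver, against 63.1, 6.16 and 17.4 CPM in iWAT. Cidea had 0.0675, 0 and 0.366 CPM in liver, against 63.4, 37.1 and 86.9 CPM in iWAT. Cox8b had no read in liver and 9.89, 6.5 and 8.08 CPM in iWAT. Ucp1 was highest in iWAT replicate 1, the library lowest in adipocyte markers. Slc27a2, a fatty acid carrier in that list, was higher in liver.

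Matrix genes were lower in liver for 29 of 32 and higher for 2, under each scaling. The collagen gene Col1a1 had 3.51, 14.9 and 2.78 CPM in liver, against 251, 962 and 205 CPM in iWAT, highest in replicate 2 of either tissue. The matrix protease Mmp3 had 0.135, 0.178 and 0.219 CPM in liver, against 46.2, 76.5 and 39.4 CPM in iWAT. Fibronectin (Fn1), which hepatocytes also release into plasma, was one of the higher genes, with 4115, 1954 and 2778 CPM in liver, against 281, 640.3 and 349.5 CPM in iWAT. Col18a1, the source of endostatin, was the other, with 1319.8, 831 and 1303 CPM in liver, against 45.5, 94.1 and 33.1 CPM in iWAT, a log2 fold change of 4.32 ± 0.49 (SE), edgeR adjusted p = 3.28e-04, and 5.01 without iWAT replicate 2. Most adipose progenitor markers, summed above, were lower in liver with the matrix genes, and their part in this was not tested.

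The KO libraries, none of which enters the WT comparison, were set beside it. There 4211 of 14048 genes (30%) were higher in liver and 5413 (38.5%) lower. Of the genes called higher in WT and tested in KO, 3426 of 3672 (93.3%) were called higher in KO, and of those called lower, 4228 of 4708 (89.8%) were called lower. Of the genes at least 8-fold apart in WT, 986 of 992 higher ones and 1766 of 1793 lower ones were called the same way in KO. In a test of the difference between the genotypes, 0 of 14673 genes (0%) passed with edgeR and 0 with limma-voom, 705 had an unadjusted p under 0.05, and DESeq2 called 35. Hmox1, Mest and Wfdc17 were the 3 genes called in opposite directions in KO and WT, and for none did the difference pass (edgeR adjusted p = 0.55, 0.72 and 0.48). The WT call of Mest was lost without any 1 of 4 of the 6 libraries, and that of Wfdc17 without any 1 of 5. The tissue difference of the urinary protein gene Mup22 was 9.07 in KO and 5.03 in WT on the log2 scale, and the difference between these did not pass (edgeR adjusted p = 0.21). In iWAT, Mup22 averaged 63.5 CPM in the KO libraries, against 748, 944 and 1588 CPM in the WT libraries.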

How the data were processed

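Per the labels' protocols, total RNA from Trizol extraction was selected with oligo(dT) beads, and cDNA from random priming was sequenced on an Illumina instrument. Each library has 2 gene tables as the authors deposited them, one with the expected count and one with FPKM, and none is pooled. The submitters' processing notes list edgeR, DESeq2, RSEM, StringTie 1.3.1, HISAT2, Bowtie2 2.2.8 and fastp 0.18.0, with build mm10, and give no role for them. The sources used here state neither strand setting nor annotation release, so reads of antisense or overlapping genes cannot be told apart. Depth was 18430372 to 27462097 expected counts in the 6 WT libraries.

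Expected counts were rounded. Genes kept by filterByExpr (10 counts, 15 in total) were scaled by TMM and tested as liver minus iWAT in the WT libraries with edgeR 4.0.16 in R 4.3.3, by robust quasi-likelihood with Benjamini-Hochberg adjustment over all genes tested. The SE is derived from the F statistic and the log2 fold change. The KO libraries were treated alike, and 1 fit of all 12 libraries gave the difference between genotypes. Alternatives used limma 3.58.1 on log2 FPKM with pseudocounts of 0.1 and 1, limma-voom, DESeq2 1.42.0, other scalings, filters and thresholds, and each library left out. The steps were tested on simulated data. Bounds use 3 counts over the libraries of a tissue.

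Genes were named by rule: in each direction the 15 of highest FPKM at 8-fold or more, by p up to 4 members per list and up to 4 called against their list, both genes of each pair, leading regulators, and Alb, Adipoq and Bckdha. The 15 were taken only from genes whose groups did not overlap, without predicted and mitochondrially encoded genes. Other genes are well-known list members named after their values were seen. The members, lists and pairs were chosen with earlier results of these data known. The count of genes called under all 4 scalings was added after the data were seen. The third tissue of the series entered only a fit of all 18 libraries, as an alternative. Some genes and pairs are counted in the lists but not reported here by name or in the figures.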

Additional observations from a re-analysis of the deposited data

How the results depend on the processing

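Counts of called genes depended on the scaling and the threshold. In KO, 1470 genes were higher in liver and 10625 lower with library totals, against 1363 and 9593 in WT, and 1363 WT genes were higher under all 4 scalings. limma on log2(FPKM + 0.1) gave 1400 higher and 9100 lower in KO, against 1278 and 8258 in WT. With FPKM + 1 the counts were 1397 and 9095 in KO, against 1278 and 8118 in WT, and with no filter 1542 and 11259 in KO, against 1423 and 9656 in WT. At 8-fold, 1019 were higher and 2047 lower in KO, against 1004 and 1862 in WT. Leaving out a library gave 3739 to 4901 higher and 4805 to 5783 lower in KO, and 3007 to 3934 higher and 3604 to 5081 lower in WT. The difference between genotypes was called for 35 genes with DESeq2 and for 0 to 1 genes with a library left out. The other planned settings stayed within 1.5 times of the counts reported.

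Same-numbered liver and iWAT libraries had correlations of deviations from their group means of 0.091, -0.049 and -0.066. Differently numbered ones ranged from -0.148 to 0.155. With so few libraries these values cannot decide whether a shared number marks a shared animal. A fit with the number as a replicate block called 4114 genes higher and 5274 lower in KO, 3413 and 4318 in WT, and 0 for the difference.

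Of the 3674 values of named genes under alternatives, 3506 kept direction and call, 100 lost the call, 29 gained one and 39 changed sign. The sign changes came from these genes. With limma on log2 FPKM, over its 3 settings, Cdo1 was at -0.05 and -0.055, Cebpa at -0.11, Ghr at -0.70, Glul at -1.02 and -1.01, Insr at -1.15 and -1.07, Mest at -0.13 and -0.040, Pygl at -0.37 and Thrb at -0.13 and -0.12. With library totals Cdo1 was at -0.16, Cebpa at -0.28, Ghr at -1.24, Glul at -1.18, Insr at -1.23, Pygl at -0.42 and Thrb at -0.29. With upper quartile scaling Ghr was at -0.14, Glul at -0.092 and Insr at -0.17. With a library left out, Ghr ranged from -0.20 to 0.69, Glul from -0.12 to 0.52, Insr from -0.18 to 0.55 and Mlxipl from -0.55 to 0.15. The negative values of Ghr, Glul and Insr came without iWAT replicate 1, for Insr also without liver replicate 1, and the positive value of Mlxipl came without iWAT replicate 2. The cause was not tested. Of 174 named genes with a call, 19 moved by over 1.5 times without iWAT replicate 2 and 4 to 9 without any other, and at most 8 lost the call.

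Depth limits the genes with few reads: 8651 genes could not be tested, and 28 genes called higher and 156 called lower had no read in the other tissue, so that their fitted fold changes depend on the prior count.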

Other observations

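Markers of the smaller cell populations of the liver were not all higher in liver. Of 8 Kupffer cell markers, 4 were higher and 2 lower, with sums of 1071, 758 and 905 CPM in liver and 423, 355 and 370.2 CPM in iWAT. These 8 include Cdh5, which is also in the list of endothelial markers. The lower count was 0 without iWAT replicate 3 or liver replicate 3, and 1 without iWAT replicate 2 or liver replicate 1 or 2. Of 9 hepatic stellate markers, 3 were higher and 2 lower, with sums of 356, 126 and 286 CPM in liver and 234, 293 and 236 CPM in iWAT. Of 7 sinusoidal endothelial markers, 2 were higher, with sums of 303, 115 and 264 CPM in liver and 181, 118 and 194 CPM in iWAT. Liver replicate 2 was the lowest liver library in these 3 sums and fell below the 3 iWAT libraries in the last 2 of them. Of 6 bile duct markers tested, 4 were higher, 3 of them under each scaling, with sums of 53.2, 92.7 and 47.5 CPM in liver and 17.4, 7.67 and 7.44 CPM in iWAT, and there liver replicate 2 was the highest.

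Plasma cell markers were lower in liver for 5 of 7 and higher for 1, with sums of 972, 883 and 989.6 CPM in liver and 12325, 400.1 and 1499 CPM in iWAT. The lower count was 1 without any 1 of the liver libraries and 2 without iWAT replicate 1, where the higher count was also 2. As for B and T cells, iWAT replicate 1 had the highest sum, and in TMM-scaled CPM iWAT replicate 2 lay under the 3 liver libraries. With library totals alone, the plasma cell sum of iWAT replicate 2 lay above that of liver replicate 2. The liver sums include the 1 member higher in liver, with a log2 fold change of 3.74. Ighm, another member, had 95.8 CPM in iWAT replicate 2, above its 10.5, 12.2 and 7.54 CPM in liver.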
